A study of Homo sapiens with 15 samples.

Results

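The lysine deacetylase (KDAC) genes HDAC6, HDAC8, HDAC10 and HDAC11 were followed in HT1080, a fibrosarcoma line of human origin, across 5 groups of cells that all received an inhibitor. They are the 4 rows with these gene names among 60675 genes in the deposited table. The set was selected on gene name, as the inhibitor targets and their relatives, when the levels of HDAC6, HDAC8 and HDAC11 in 6CD2m and 8CDm cells, and of HDAC6 in WT cells on Tubastatin A, were already known. All 4 passed the filter on low counts that left 19535 genes for testing. In every group, RNA was depleted of rRNA and sequenced from 3 biological replicates of cells kept on an inhibitor. 6CD1m cells carry the missense change H216A in the first catalytic domain of endogenous HDAC6, 6CD2m cells carry H611A in the second catalytic domain, and both lines received Tubastatin A (1.0 μm) over 2 days. 8CDm cells carry H143A in endogenous HDAC8 and received PCI-34051 (5.0 μm) over 2 days. WT HT1080 cells were kept on either inhibitor at the same dose for 14 days. Each inactivated line and the WT cells on the same inhibitor therefore differ in genotype and in treatment time, which cannot be told apart, and the inhibitors were given at different doses. Untreated cells are not analysed here. Each mutation is represented by 1 derived line, so a difference between lines cannot be told apart from a difference between the cells they were grown from.

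KDACs remove acetyl and other acyl groups from lysine side chains, and the classical members do so with a zinc ion held in the active site. KDAC6 is a mainly cytoplasmic enzyme with 2 catalytic domains that deacetylates α-tubulin and binds ubiquitin, and Tubastatin A is used as its selective inhibitor. KDAC8 is a class I enzyme that deacetylates the cohesin subunit SMC3, and PCI-34051 is used as its selective inhibitor. HDAC10 is the closest relative of KDAC6, acts on acetylated polyamines such as N8-acetylspermidine, and is also bound by Tubastatin A. HDAC11, the only class IV member, removes long-chain fatty acyl groups from lysine.

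The histidine that was changed to alanine in each line sits next to another histidine in the active site of the classical KDACs. The stretches below show the changed codons and the matching ones of the untouched relatives, so that the position of each change in its gene can be seen. They are the coding strand of the reference genome GRCh38 from 5′ to 3′, with the histidine codon in capitals. For HDAC10 and HDAC11 the codon was found by aligning the translated reference sequence with HDAC8.
HDAC6 H216A: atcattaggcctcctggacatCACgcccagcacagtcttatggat
HDAC6 H611A: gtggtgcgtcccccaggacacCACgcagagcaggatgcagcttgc
HDAC8 H143A: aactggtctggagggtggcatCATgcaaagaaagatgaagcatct
HDAC10: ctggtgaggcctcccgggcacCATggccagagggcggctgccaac
HDAC11: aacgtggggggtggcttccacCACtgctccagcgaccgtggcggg
The H216A codon lies in exon 9 of HDAC6 at chrX:48808046-48808048, and the H611A codon in exon 20 at chrX:48817365-48817367, both on the plus strand. The H143A codon lies in exon 4 of HDAC8 at chrX:72567897-72567899 on the minus strand. The HDAC10 codon, for histidine 135, is in exon 5 at chr22:50249949-50249951 on the minus strand, and the HDAC11 codon is in exon 6 at chr3:13500727-13500729 on the plus strand. In all 5 stretches the codon just before the capitals also encodes histidine. The labelled changes replace an amino acid, and the reads were not examined for them. The read counts per gene below therefore do not check which line a library came from.

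Between 10932455 and 19983710 reads per library were assigned to genes (median 17551887), and the 3 libraries of 6CD1m cells were the shallowest. Expression is given as CPM, the estimated reads of a gene relative to the TMM-scaled library total, and a difference is called where edgeR's adjusted p, over all 19535 genes tested, is below 0.001. The fibrosarcoma markers VIM, FN1, CD44, MMP14 and PLAU were at group means between 425 and 4610 CPM. The epithelial markers EPCAM and CDH1 and the blood and hepatocyte markers PTPRC, CD3E, HBB, ALB and APOA1 had 0 to 5 reads in a library, and KRT19, also epithelial, reached 30 reads. These are bulk samples, so more cells with a transcript and more transcript per cell cannot be told apart.

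All 4 genes were detected in every library. Over the 15 libraries HDAC6 ran from 12.4 to 34.2 CPM, HDAC8 from 12.6 to 19.8 CPM, HDAC10 from 20.8 to 63.8 CPM and HDAC11 from 2.16 to 6.28 CPM. HDAC8 was the steadiest, with a 1.56-fold range, against 2.76-fold for HDAC6, 2.9-fold for HDAC11 and 3.06-fold for HDAC10. Per kilobase of the main transcript the median levels were 10.2 CPM for HDAC10, 8.06 for HDAC8, 5.58 for HDAC6 and 1.43 for HDAC11. The place of HDAC8 in this order depended on the length used, since it was 0.74 CPM per kilobase over all 22986 annotated exon bases, below HDAC11 at 0.802. HDAC11 rested on a mean of 70 reads per library and the others on 280 to 543.

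**Figure D1:**
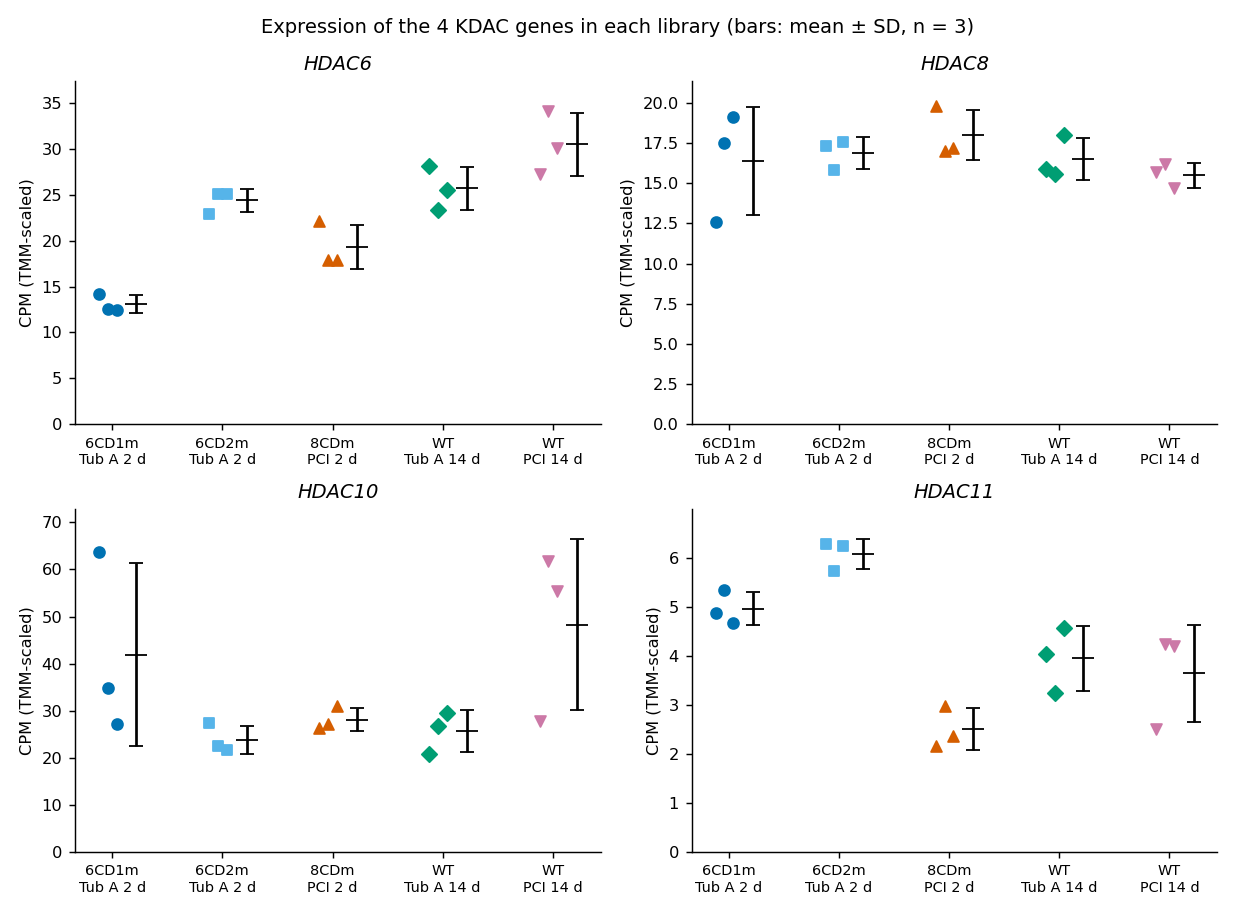
Expression of HDAC6, HDAC8, HDAC10 and HDAC11 in CPM (TMM-scaled; vertical axes start at 0 and differ between panels) in each of the 15 libraries, grouped along the horizontal axis by line, inhibitor and days of treatment; coloured points are libraries and black bars the mean ± SD (n = 3). HDAC6 is lowest in all 3 libraries of 6CD1m cells (12.4 to 14.2 CPM), HDAC8 is level, HDAC10 is high in 1 library of 6CD1m and 2 of WT cells on PCI-34051, and HDAC11 is lowest in 8CDm and highest in 6CD2m cells.

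Of the 24 tests, 4 genes in 6 comparisons, 3 were called and all 3 were of HDAC6, while 8 had an adjusted p below 0.05. Values below 0.05 were common among the 19535 genes tested in some comparisons. For HDAC10, an edgeR adjusted p of 0.04 ranked 7374 between 6CD1m and 6CD2m cells. Its 0.049 ranked 7035 between 8CDm and WT cells on PCI-34051. Such values were rarer between WT cells on the inhibitors, where its 0.063 ranked 2312. The 8 was not compared with the share of all genes and is a count only. The HDAC6 test between 6CD2m and WT cells, which was not called, is counted among the 24 but set aside because its values were known beforehand. Each of the 3 called tests also includes a group whose HDAC6 level was known when the genes were picked. The same holds for the tests of HDAC8 and HDAC11 that include 6CD2m or 8CDm cells, so these tests are not fully independent of the choice of genes. The share of all tested genes called was 0.42% between WT cells on PCI-34051 and on Tubastatin A, 13.2% between 6CD1m and 6CD2m cells, 0.793% between 6CD1m cells and WT cells on Tubastatin A, 11.8% between 6CD2m cells and WT cells both on Tubastatin A, 11% between 8CDm cells and WT cells on PCI-34051 and 11.1% between 6CD1m and 8CDm cells. With the replicate number as a block shared by all 5 groups, 27 genes were called between WT cells in place of 82. Several of these comparisons share groups, so they are not independent of each other.

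**Figure D2:**
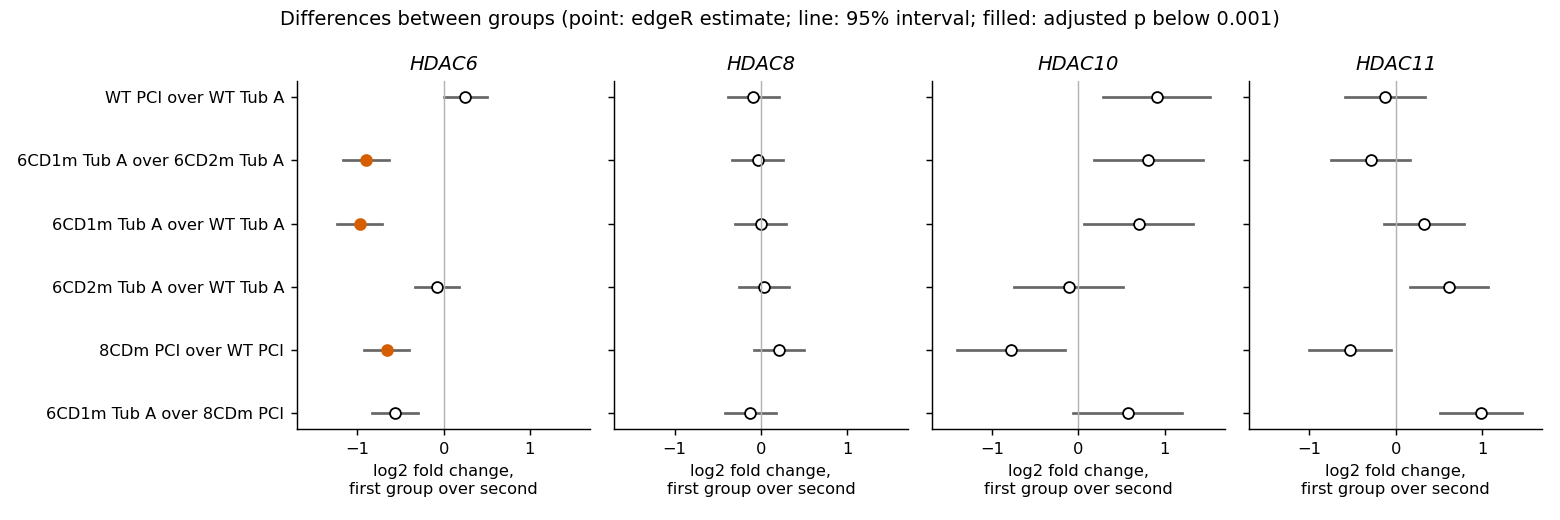
Log2 fold change (horizontal axis, first group over second) of each gene in the 6 comparisons listed on the vertical axis; points are edgeR estimates, lines their 95% intervals, and filled points have an adjusted p below 0.001. The 3 filled points are HDAC6 at -0.90, -0.97 and -0.66, and the HDAC8 points lie within 0.21 of 0.

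HDAC6 (ENSG00000094631), which encodes KDAC6, the target of Tubastatin A, spans chromosome X of GRCh38 from 48801377 to 48824982 on the plus strand. Among the cells on Tubastatin A, its transcript was lowest in the line with the first catalytic domain inactivated. The 3 libraries of 6CD1m cells had 14.2, 12.6 and 12.4 CPM, and those of 6CD2m cells had 22.9, 25.1 and 25.1 CPM. WT cells had 28.1, 23.4 and 25.5 CPM on Tubastatin A. The highest 6CD1m library was below the lowest library of either other group on Tubastatin A, and 51.7% of all tested genes kept 6CD1m apart from 6CD2m cells and 31% from WT cells in this way. 6CD2m and WT cells overlapped for HDAC6, and were apart for 50% of genes.

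HDAC6 fell by 0.90 on the log2 scale (SE 0.12) in 6CD1m relative to 6CD2m cells, at 13.1 ± 0.992 against 24.4 ± 1.27 CPM (SD, n = 3; edgeR adjusted p = 5.4e-05). These groups had the same inhibitor, dose and time. The call was made under all 10 other settings tried and with each of the 6 libraries left out in turn. Relative to WT cells on Tubastatin A for 14 days, at 25.7 ± 2.37 CPM (n = 3), the fall in 6CD1m cells was 0.97 (SE 0.12, edgeR adjusted p = 0.00024), a ratio of 0.509. This call was made under 5 of 10 other settings and was lost when any of 4 libraries was left out. Without 6CD1m replicate 2 the log2 fold change was -0.97 (adjusted p = 0.0023), without 6CD1m replicate 3 it was -0.96 (adjusted p = 0.0013), without replicate 1 of WT cells on Tubastatin A -0.92 (adjusted p = 0.0014) and without replicate 3 of these WT cells -1 (adjusted p = 0.0011). The size of the difference thus stayed between -1.06 and -0.92 when libraries were left out. 6CD2m cells were at a ratio of 0.949 to WT cells on Tubastatin A, which is a description only, since both levels were known when the genes were picked.

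On PCI-34051 the HDAC6 transcript was lower in 8CDm than in WT cells, although HDAC6 is not the mutated gene in this line. The 8CDm libraries had 22.1, 17.9 and 17.9 CPM and those of WT cells 27.3, 34.2 and 30.1 CPM, with no overlap, as for 48.1% of all genes tested in this comparison. HDAC6 fell by 0.66 (SE 0.12, edgeR adjusted p = 0.00064), at 19.3 ± 2.4 against 30.5 ± 3.46 CPM (n = 3). With offsets for GC content the log2 fold change was -0.41 and was not called (adjusted p = 0.016). The call was also lost without 8CDm replicate 2 or 3 (-0.61, adjusted p = 0.0053 for each), without replicate 2 of WT cells on PCI-34051 (-0.57, adjusted p = 0.0043) and without replicate 3 of these (-0.67, adjusted p = 0.0029). 6CD1m and 8CDm cells differed by -0.56 (SE 0.12), which was not called (adjusted p = 0.0027). The test of whether 8CDm and 6CD1m cells differed unequally from WT cells on their own inhibitors gave 0.31 for HDAC6 (SE 0.17, adjusted p = 0.16), so a difference between the falls was not shown. With offsets for GC content it was 0.72 (adjusted p = 0.0062), also not called. In WT cells HDAC6 was 0.25 higher on PCI-34051 than on Tubastatin A (95% interval 0 to 0.5, adjusted p = 0.17), and the libraries overlapped, whereas those of 25.9% of all genes did not.

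Some of the genes around HDAC6 had estimates in its direction in the 3 comparisons where it was called, but none was called lower in these. TIMM17B was called lower in 6CD2m than in WT cells on Tubastatin A (-0.67, adjusted p = 0.00048), where HDAC6 was not. The 5 tested genes on either side had a median log2 fold change of 0.06 between 6CD1m and 6CD2m cells, 0.03 between 6CD1m and WT cells on Tubastatin A and -0.03 between 8CDm and WT cells on PCI-34051. Among them SUV39H1, which encodes a histone H3 methyltransferase, went the other way and rose by 1.07 in 6CD1m relative to 6CD2m cells (adjusted p = 0.00038). In that comparison RP11-1148L6.8 was at -1.30 (adjusted p = 0.015), PQBP1 at -0.43 (adjusted p = 0.0076) and SLC35A2 at -0.40 (adjusted p = 0.0051). TIMM17B, the next tested gene downstream of HDAC6, which encodes a subunit of the mitochondrial import machinery, was at -0.50 between 6CD1m and WT cells on Tubastatin A (adjusted p = 0.019) and at -0.54 between 8CDm and WT cells on PCI-34051 (adjusted p = 0.0028), where SUV39H1 was at -0.57 (adjusted p = 0.024). The median of the 517 tested protein-coding genes of chromosome X was -0.22, -0.21 and 0.10 in the same order. Protein-coding genes with a GC content within 2 points of the 56.2% of HDAC6 had medians of 0.16, 0.02 and -0.24. The part of GC content in the HDAC6 values was not tested beyond the offsets, which gave -1.12, -1.12 and -0.41.

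**Figure D3:**
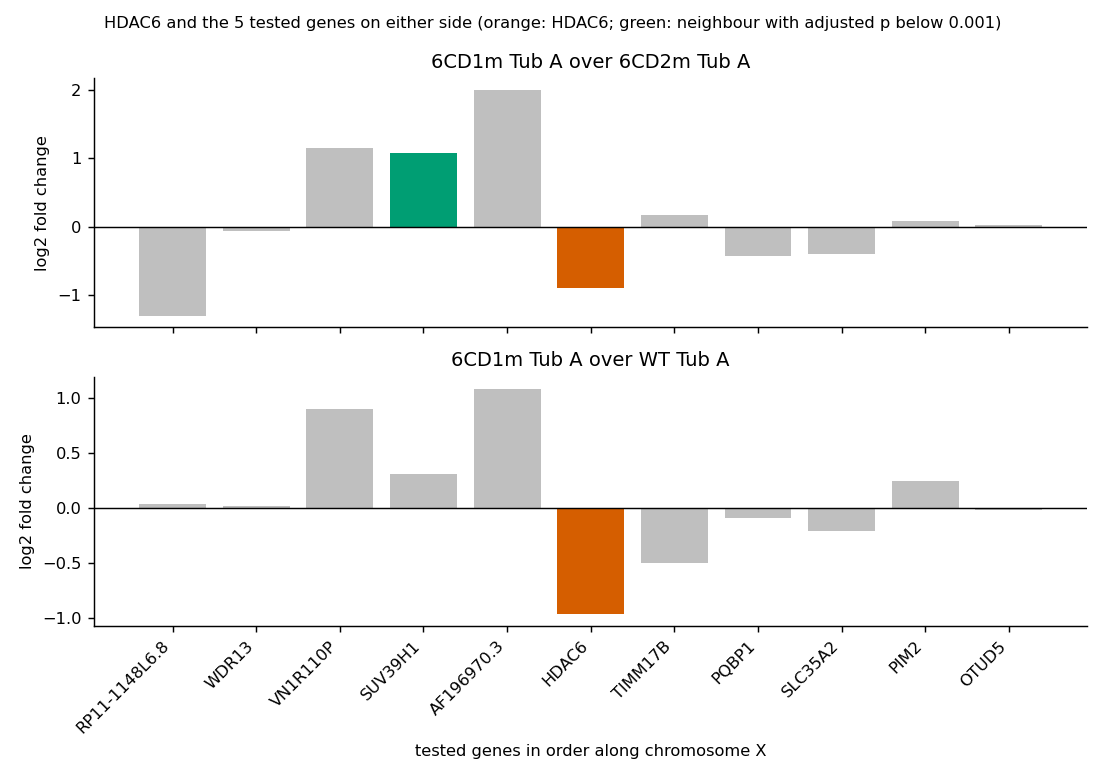
Log2 fold change (vertical axis; scales differ) of HDAC6 and the 5 tested genes on either side of it, in order along chromosome X, for 6CD1m over 6CD2m cells (top) and 6CD1m over WT cells on Tubastatin A (bottom); orange is HDAC6 and green a neighbour with an adjusted p below 0.001. HDAC6 stands at -0.90 and -0.97, and the only green bar is SUV39H1 at 1.07.

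HDAC8 (ENSG00000147099), which encodes KDAC8, the target of PCI-34051, spans chromosome X from 72329516 to 72573199 on the minus strand. Its level was close to the same in all groups, including the line that carries the HDAC8 mutation. The 8CDm libraries had 19.8, 17 and 17.2 CPM, and WT cells had 15.7, 16.2 and 14.7 CPM on PCI-34051. These groups did not overlap, which held for 48.1% of all genes, and their log2 fold change was 0.21 (95% interval -0.08 to 0.5, adjusted p = 0.25). The libraries of 6CD1m cells had 12.6, 17.5 and 19.1 CPM, those of 6CD2m cells 17.3, 15.8 and 17.6 CPM, and those of WT cells on Tubastatin A 15.9, 15.6 and 18 CPM. Replicate 1 of 6CD1m cells was the lowest of all 15, and the other libraries lay between 14.7 and 19.8 CPM.

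None of the 6 comparisons of HDAC8 was called, with estimates between -0.13 and 0.21 and adjusted p from 0.25 to 0.99. The 95% intervals reached from -0.42 to 0.5 at their widest ends, so no difference was detectable within these limits. No direction can be given for HDAC8, since offsets for GC content turned the sign in every comparison but left each uncalled. In the comparison of 8CDm with WT cells the estimate went from 0.21 to -0.09. HDAC8 has the lowest GC content of the 4 genes, 40.8%, and protein-coding genes of like GC content had a median log2 fold change of 0.33 there.

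HDAC10 (ENSG00000100429), the polyamine deacetylase, spans chromosome 22 from 50245183 to 50251405 on the minus strand. It was the most variable of the 4 genes within groups, with a biological coefficient of variation of 24.9%, against 10.4% for HDAC6, 11.3% for HDAC8 and 15.6% for HDAC11. The libraries of 6CD1m cells had 63.8, 34.8 and 27.1 CPM, and those of WT cells on PCI-34051 had 27.7, 61.8 and 55.5 CPM. The libraries of 6CD2m cells had 27.3, 22.4 and 21.7 CPM, those of 8CDm cells 26.3, 27.1 and 31 CPM and those of WT cells on Tubastatin A 20.8, 26.8 and 29.5 CPM. Replicate 1 of 6CD1m and replicates 2 and 3 of WT cells on PCI-34051 were at 55.5 CPM or more, and the others were between 20.8 and 34.8 CPM.

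HDAC10 was called in no comparison, and in none of the 6 were the libraries of the groups apart. They were apart for 25.9% to 51.7% of all tested genes, depending on the comparison. The estimate was 0.91 (SE 0.29) between WT cells on PCI-34051 and on Tubastatin A (adjusted p = 0.063), 0.81 (SE 0.3) between 6CD1m and 6CD2m cells (adjusted p = 0.04), and -0.78 (SE 0.29) between 8CDm and WT cells on PCI-34051 (adjusted p = 0.049). Without replicate 1 of 6CD1m the second of these was 0.38. The line-by-WT difference of HDAC10 was -1.48 (SE 0.42) between 8CDm on PCI-34051 and 6CD1m on Tubastatin A, with an adjusted p of 0.014, where 5.42% of all genes were called, and it was -0.63 with offsets for GC content (adjusted p = 0.034).

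The 3 libraries with high HDAC10 also differed from the rest in how expression varied with GC content. Spearman's rho across 13946 protein-coding genes between GC content and a library's deviation from the mean of all libraries was 0.529 in replicate 1 of 6CD1m, and 0.553 and 0.536 in replicates 2 and 3 of WT cells on PCI-34051, while the other 12 libraries lay between -0.377 and 0.249. The genes are not independent, so this is a description. HDAC10 has the highest GC content of the 4 genes, 66.9%. Genes of like GC content were 0.55, 0.47 and 0.39 above their mean in these libraries (median, log2 scale), and HDAC10 itself was 1.02, 0.98 and 0.82 above its own. With offsets for GC content HDAC10 differed by 0.50 between WT cells on the inhibitors, by 0.35 between 6CD1m and 6CD2m cells and by -0.28 between 8CDm and WT cells on PCI-34051 (adjusted p = 0.043, 0.074 and 0.16). The part of GC content in the HDAC10 values was not tested further.

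**Figure D4:**
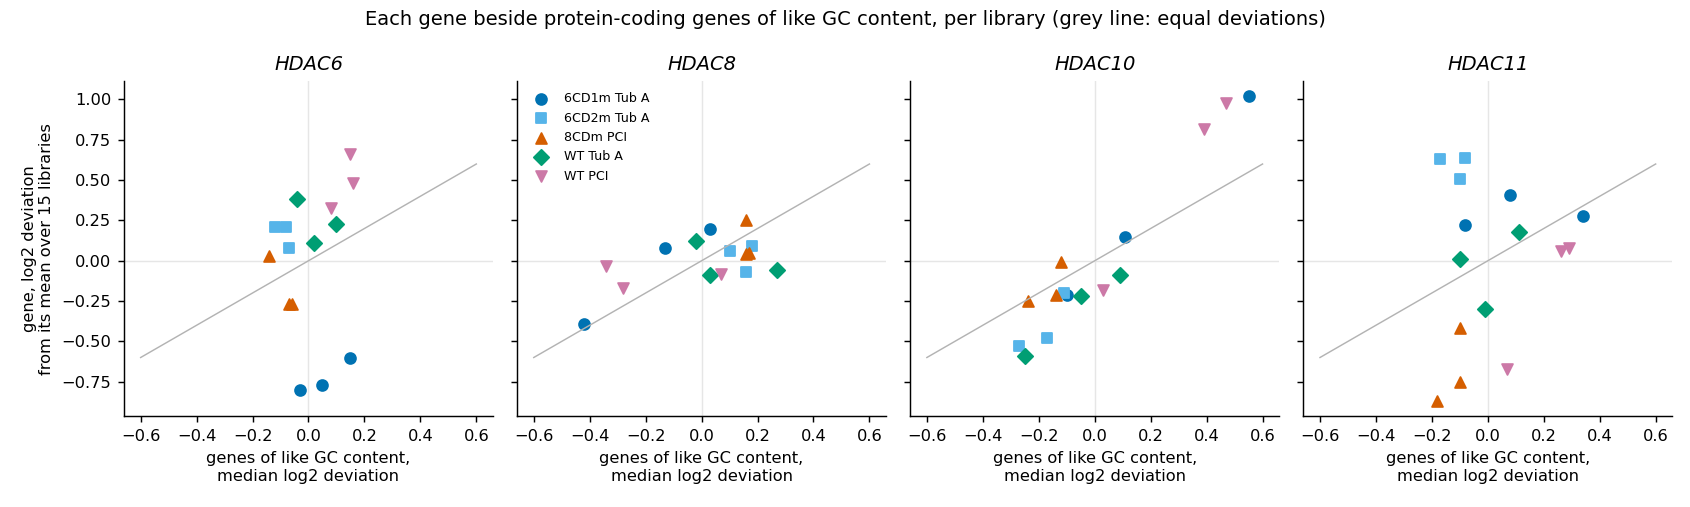
Log2 deviation of each gene from its mean over the 15 libraries (vertical axis) against the median log2 deviation of protein-coding genes whose GC content is within 2 points (horizontal axis), with 1 point per library, coloured by group; the grey line marks equal deviations. HDAC10 rises with the genes of like GC content and stands highest, at 1.02, 0.98 and 0.82, in the 3 libraries where these are highest, whereas HDAC6 is low in all 3 libraries of 6CD1m cells without such a shift.

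MAPK12, which encodes a p38 kinase and was looked at after its overlap was seen, covers HDAC10 from 50245450 to 50261825 on the same strand and shares 2763 of the 4951 exon bases of HDAC10 (55.8%). The deposited HDAC10 counts were whole numbers in 1 of 15 libraries, against 15 of 15 for each of the other 3 genes, so nearly all HDAC10 values include reads split with another gene. MAPK12 was at 177 CPM in replicate 1 of 6CD1m cells and at 153 and 134 CPM in replicates 2 and 3 of WT cells on PCI-34051, and between 66.6 and 107 CPM elsewhere. HDAC10 took 20.1% to 29.2% of the reads of the pair. With both genes counted together, the differences were 0.70 between WT cells on the inhibitors (adjusted p = 0.082) and 0.54 between 6CD1m and 6CD2m cells (adjusted p = 0.092). MAPK12 alone differed by 0.62 and 0.46 in these comparisons and was not called in any of the 6. The 10 neighbours of HDAC10, MAPK12 included, had medians of 0.58 and 0.50.

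**Figure D5:**
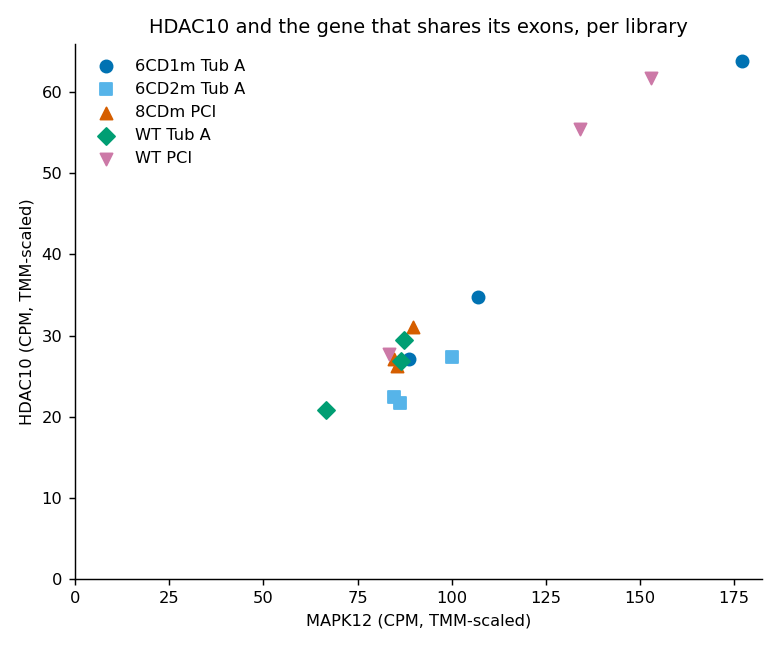
HDAC10 (vertical axis) against MAPK12 (horizontal axis), the gene that shares its exons, both in CPM, with 1 point per library. The 3 libraries with 55.5 to 63.8 CPM of HDAC10 are those with 134 to 177 CPM of MAPK12.

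HDAC11 (ENSG00000163517), the fatty deacylase, spans chromosome 3 from 13479724 to 13506424 on the plus strand and had the lowest level of the 4. The libraries of 6CD2m cells had 6.28, 5.72 and 6.23 CPM, those of 6CD1m cells 4.88, 5.33 and 4.67 CPM, and those of 8CDm cells 2.16, 2.98 and 2.36 CPM. WT cells had 4.04, 3.24 and 4.56 CPM on Tubastatin A and 2.51, 4.23 and 4.19 CPM on PCI-34051. The group means ran in the order 8CDm, WT on PCI-34051, WT on Tubastatin A, 6CD1m and 6CD2m. Neighbours in this order overlapped up to WT cells on Tubastatin A, and 6CD1m and 6CD2m cells lay above these and apart from each other, where 31% of all genes were apart between 6CD1m and WT cells on Tubastatin A and 51.7% between 6CD1m and 6CD2m cells.

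The pair with the widest gap, 6CD2m at 6.08 ± 0.306 CPM and 8CDm at 2.5 ± 0.425 CPM (n = 3), is given as a description, because its difference was known when the genes were picked; their libraries did not overlap, and nor did those of 51.6% of all genes. The ratio was 2.42 for HDAC11, and 1.26 for HDAC6, 0.94 for HDAC8 and 0.846 for HDAC10. Among the comparisons that were tested, HDAC11 differed by 0.99 between 6CD1m and 8CDm cells (SE 0.22, adjusted p = 0.0032), which was not called with edgeR and was called with DESeq2 (adjusted p = 0.00036). DESeq2 was the only 1 of 10 other settings to call it. Over these settings the estimate ran from 0.71 to 1.07, with an edgeR adjusted p of up to 0.022. With a library left out it was called in 0 of 6 fits. The groups did not overlap, as was true of 50.7% of all genes tested in that comparison. The estimate was 0.62 in Tubastatin A-treated 6CD2m relative to WT cells (SE 0.21, adjusted p = 0.037) and -0.53 between 8CDm and WT cells on PCI-34051 (SE 0.23, adjusted p = 0.077), neither of them called, and the latter was -0.17 with offsets for GC content (adjusted p = 0.57). 6CD1m differed from 6CD2m by -0.29 (95% interval -0.75 to 0.16) and from WT cells on Tubastatin A by 0.33 (95% interval -0.14 to 0.79). WT cells on the inhibitors differed by -0.12 (95% interval -0.59 to 0.34), and without replicate 1 of WT cells on PCI-34051, the lowest of its group, by 0.09. The line-by-WT difference was -0.86 for HDAC11 (SE 0.31, adjusted p = 0.043), and with offsets for GC content -0.30 (adjusted p = 0.45). An antisense gene, HDAC11-AS1, shares 330 exon bases (6.2%) with HDAC11 and had at most 3 reads in a library.

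The genes whose log2 CPM followed each of the 4 most closely over the 15 libraries, among 14235 genes compared, differed from gene to gene. For HDAC6 the closest was MMP1, interstitial collagenase, with a Pearson r of 0.952, at 0.611 ± 0.195 CPM in 6CD1m, 20.7 ± 4.53 in 6CD2m, 6.9 ± 0.895 in 8CDm, 42 ± 11.2 in WT cells on Tubastatin A and 67.3 ± 14.2 in WT cells on PCI-34051 (n = 3 each). MMP1 had 6 to 12 reads in the libraries of 6CD1m cells. The next were ACOT2, an acyl-CoA thioesterase, at 0.915, which had 0 reads in all 3 libraries of 6CD1m cells, and CH507-42P11.8 at 0.911. For HDAC8 they were ZNF613 at 0.855, AC006011.4 at 0.847 and RP11-423P10.2 at 0.834. For HDAC10 they were PGS1, MAN2C1 and ZNF444, each at 0.979, and all 3 had their highest means in WT cells on PCI-34051 and in 6CD1m cells. For HDAC11 they were ZNF726 at 0.955, FAT2 at 0.926 and PLCXD2 at 0.922, all lowest in 8CDm cells and highest in 6CD2m cells. The libraries fall into the same 5 groups for all genes and share the same depth and GC effects, so a high r is a description.

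The genes of the enzymes' pathways were examined in lists of 76 genes in all, every one of which was tested. Their share of calls was 1.32% between WT cells on the inhibitors, 10.5% between 6CD1m and 6CD2m cells, 1.32% between 6CD1m and WT cells on Tubastatin A, 9.21% between Tubastatin A-treated 6CD2m and WT cells, 10.5% between 8CDm and WT cells on PCI-34051 and 10.5% between 6CD1m and 8CDm cells, near the shares over all genes or resting on 1 gene. Of 15 KDAC6 substrates and partners, SQSTM1, which encodes the ubiquitin-binding autophagy receptor p62, was called in 5 of the 6 comparisons. It fell by 0.58 in 6CD1m relative to 6CD2m cells (adjusted p = 1e-04), by 0.67 relative to WT cells on Tubastatin A (adjusted p = 0.00023) and by 0.92 in 8CDm relative to WT cells on PCI-34051 (adjusted p = 1.4e-06). In WT cells SQSTM1 was 0.72 higher on PCI-34051, at 1440 CPM, than on Tubastatin A, at 873 CPM (adjusted p = 0.00027). It was not called when same-numbered libraries of all 5 groups shared a block (0.72, edgeR adjusted p = 0.0021). A fit of the WT pairs alone was not run. The α-tubulin genes TUBA1C (-0.70 in 6CD2m relative to WT cells on Tubastatin A) and TUBA1B (0.79 in 6CD1m relative to 8CDm cells) were each called once. The list's median log2 fold change was between -0.26 and 0.18 in the tested comparisons.

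Of 13 genes of the cohesin complex and its regulators, CDCA5, which encodes the cohesin-protecting factor sororin, was called in 4 comparisons. It was at 62.4 CPM in 6CD1m and 59.8 CPM in WT cells on Tubastatin A, 31.4 CPM in 6CD2m, 27.8 CPM in 8CDm and 47.7 CPM in WT cells on PCI-34051. ESCO1, an acetyltransferase of SMC3, rose by 0.81 in 8CDm relative to WT cells on PCI-34051 (adjusted p = 0.00053), where the list's median was 0.54 and that of all genes -0.04. With offsets for GC content ESCO1 was at 0.36 there (edgeR adjusted p = 0.019) and was not called. CDCA5 went from -0.78 to -0.56 in that comparison (edgeR adjusted p = 0.003), which was not called either. Across 13946 protein-coding genes the fold change in this comparison also fell with GC content (Spearman's rho -0.454), and its part in the list's median was not tested. SMC3 itself, the substrate of KDAC8, was not called in any comparison, with its largest estimate, 0.89, between 8CDm and WT cells on PCI-34051 (adjusted p = 0.0015).

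Of 17 genes of polyamine metabolism, SMOX, which encodes spermine oxidase, was called in 3 comparisons. It rose by 1.39 in 6CD1m relative to 6CD2m cells (adjusted p = 1.5e-06), and fell by 1.3 in 6CD2m relative to WT cells on Tubastatin A (adjusted p = 2.5e-06) and by 1.17 in 8CDm relative to WT cells on PCI-34051 (adjusted p = 7.6e-06). ATP13A2, a lysosomal polyamine transporter, went the other way in the same comparisons, by -0.62, 0.72 and 0.66, all called. SAT1, spermidine/spermine acetyltransferase, was called lower in 6CD1m than 6CD2m cells (-0.98, adjusted p = 0.00054), and OAZ1, ornithine decarboxylase antizyme, fell by 0.65 in 8CDm relative to WT cells on PCI-34051 (adjusted p = 0.00038) and was 0.58 higher in 6CD1m than in 8CDm cells. Of 5 genes of lysine fatty acylation, NMT2, an N-myristoyltransferase, was the only one called, at -1.29 in 6CD1m relative to 6CD2m cells and 1.25 in 6CD2m relative to WT cells on Tubastatin A, with 139 CPM in 6CD2m cells.

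Of the 7 other classical KDACs, HDAC1, HDAC2, HDAC3 and HDAC7 were called in no comparison, with ratios of the highest to the lowest group mean of 1.48, 1.83, 1.36 and 1.54. HDAC4 rose by 0.80 in 6CD1m relative to 6CD2m cells (adjusted p = 0.00065). HDAC5 fell by 0.56 in 6CD2m relative to WT cells on Tubastatin A (adjusted p = 0.00033), rose by 0.54 in 8CDm relative to WT cells on PCI-34051 (adjusted p = 0.00045) and was 0.85 lower in 6CD1m than in 8CDm cells. HDAC9 rose by 0.73 in 8CDm relative to WT cells on PCI-34051 and was 1.25 lower in 6CD1m than 8CDm cells. Of 18 subunits of class I corepressor complexes, CHD3 (0.42 in 6CD1m relative to 6CD2m and -0.41 in 6CD2m relative to WT cells), GATAD2B and DNTTIP1 (-0.60 and -0.88 in 6CD1m relative to 8CDm cells) were called. MBLAC2, an acyl-CoA thioesterase that hydroxamate inhibitors bind, ran from 9.59 CPM in 6CD1m to 12.5 CPM in 8CDm cells and was not called. Of the 33 calls of listed genes, 14 were made again with each library of the comparison left out in turn. These were all 3 calls of SMOX, both of NMT2, 3 of the 4 of CDCA5, 2 of the 3 of ATP13A2, 2 of the 5 of SQSTM1 and those of HDAC5 and HDAC9 between 6CD1m and 8CDm cells, and each of the other 19 was lost without at least 1 library. Some were lost whichever of the 6 libraries was left out. These were the calls of HDAC5 against WT cells, those of CHD3, and that of TUBA1C. The calls of SQSTM1 and OAZ1 between 6CD1m and 8CDm cells were lost in the same way. With offsets for GC content 10 of the 33 calls were lost, and with the replicate number as a block 14. Lost with GC offsets were, among others, SQSTM1 (-0.65) and OAZ1 (-0.33) between 8CDm and WT cells on PCI-34051. CHD3 between 6CD1m and 6CD2m cells (0.20) was lost as well.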

How the data were processed

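RNA was sequenced from 15 libraries, 3 in each of 5 groups taken from the sample labels. Per the labels, the submitters' processing notes name Trimmomatic 0.39, Bowtie2 2.4.5, RSEM 1.3.3, DESeq2 1.38.2 and the build GRCh38. The authors deposited expected counts, estimates per gene that can be fractional (21.8% of nonzero values were not whole), without normalization, and these were rounded. Genes were filtered (edgeR's filterByExpr) and scaled (TMM), and 1 model of 5 group means was fitted in R 4.3.3 with edgeR 4.0.16. Comparisons used the quasi-likelihood test with Benjamini-Hochberg adjustment over 19535 genes at a false discovery rate of 0.001. The common biological coefficient of variation was 16.4%. Positions, transcripts and GC content came from GENCODE 29, which matched 57055 of 60675 genes, and 99.2% of tested genes had a GC value. Which annotation the authors used is not given in the sources used here. The fit was run on simulated counts with known differences, for the comparison of WT cells on the inhibitors only. How often small differences were recovered is not reported here.

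The 4 genes and the gene lists were chosen with earlier results of these data known. The genes named were the 4 genes, the other classical KDACs and MBLAC2, up to 3 called genes of each list and comparison, the 3 genes with the highest Pearson r of log2 CPM (prior count 1) with each, and the 5 tested neighbours on either side. 6CD2m and 8CDm cells were not tested against each other. Replicates carry the same numbers in all groups. Deviations from the group means correlated between same-numbered libraries of WT cells on either inhibitor (0.461, 0.211 and 0.146). Their mean was 0.273 there and at most 0.0753 in the other comparisons. The reported tests, that of WT cells included, did not model this pairing. The replicate number entered only as a block in an alternative fit of all 5 groups. The 15 pairs of libraries within groups all differed by more than counting noise. Alternatives were DESeq2 1.42.0, other scalings and filters, GC offsets, the replicate number as a block, fits of only the libraries compared, each library left out, and, added after seeing the data, HDAC10 and MAPK12 counted together.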

Additional observations from a re-analysis of the deposited data

How the results depend on the processing

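The 28 tested results were recomputed under 11 other settings, and in 250 of 287 cases they kept their direction and their side of the threshold. HDAC11 rested on a mean of 70 reads per library. The HDAC6 difference between 6CD1m and WT cells on Tubastatin A was no longer called with upper-quartile scaling (-0.85), a minimum of 10 counts per library (-0.90), a test of protein-coding genes alone (-0.85) or only the libraries compared (-0.92). That between 8CDm and WT cells on PCI-34051 was lost with only the libraries compared (-0.64) and with GC offsets (-0.41, also with the block, -0.41). Between 6CD1m and 8CDm cells HDAC6 became called with DESeq2 (-0.56), GC offsets (-0.78) and GC offsets with the block (-0.78), and HDAC11 with DESeq2 (0.99). The interaction of HDAC10 became called with no filter on low counts (-1.50). Leaving out replicates gave -1.06 to -0.92 for HDAC6 between 6CD1m and WT cells on Tubastatin A and -0.76 to -0.57 between 8CDm and WT cells on PCI-34051.

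Signs turned only for results that were never called. HDAC8 between 6CD1m and WT cells on Tubastatin A turned from just below 0 to 0.02 (DESeq2), 0.10 (upper quartile), 0.06 (10 counts), 0.10 (protein-coding genes), 0.04 (only the libraries compared) and 0.14 (GC offsets, with or without the block). With GC offsets HDAC8 became 0.12 between WT cells on the inhibitors (0.13 with the block), 0.17 between 6CD1m and 6CD2m cells (0.17 with the block, and 0.03 for protein-coding genes), -0.03 between 6CD2m and WT cells (-0.03 with the block), -0.09 between 8CDm and WT cells (-0.08 with the block), 0.10 between 6CD1m and 8CDm cells (0.09 with the block) and -0.22 in the interaction (-0.22 with the block). HDAC6 between 6CD2m and WT cells became 0.01 with upper-quartile scaling and 0.01 with GC offsets and the block, and HDAC10 there 0.11 when counted with MAPK12. Leaving out replicates gave -0.22 to 0.12, -0.15 to 0.15 and -0.27 to 0.03 for HDAC8 in 6CD1m relative to 6CD2m, WT and 8CDm cells, where the sign turned without 6CD1m replicate 1 and, against WT cells, also without WT replicate 3. It gave -0.26 to 0.09 for HDAC11 between WT cells, and -0.10 to 0.03 for HDAC6 and -0.21 to 0.03 for HDAC10 between 6CD2m and WT cells. Apart from the GC offsets and the left-out libraries, whose construction sets the change, the cause was not tested.

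With the replicate number as a block, HDAC6 was no longer called between 6CD1m and WT cells on Tubastatin A (-0.97, adjusted p = 0.0015) or between 8CDm and WT cells on PCI-34051 (-0.66, adjusted p = 0.0021), and no other call of the 4 genes changed. In the first of these comparisons same-numbered libraries correlated at -0.365 to -0.0817 and in the second at -0.0831 to -0.0464. Whether these libraries share more than a number was not tested. Between WT cells on the inhibitors, where same-numbered libraries correlated positively, 27 genes were called with the block and 82 without. The block is shared by all 5 groups, so it is not a fit of pairs of WT libraries alone.

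The number of genes called moved more than the 4 genes did. Over the other settings it was 1 to 705 between WT cells (82 as reported), 1088 to 4271 between 6CD1m and 6CD2m cells (2578), 9 to 616 between 6CD1m and WT cells (155), 1703 to 3642 between 6CD2m and WT cells (2310), 829 to 3849 between 8CDm and WT cells (2140), 890 to 3912 between 6CD1m and 8CDm cells (2161) and 555 to 2981 for the interaction (1059), with the highest numbers from DESeq2. With 1 library left out, in the same order, it was 25 to 176, 1423 to 3136, 64 to 214, 1441 to 2723, 1119 to 2770, 1252 to 2771 and 577 to 2363. Between 6CD2m and WT cells 900 genes were higher and 1410 lower, and with upper-quartile scaling 1211 and 1228. Between WT cells 17 were higher and 65 lower on PCI-34051, and with DESeq2 233 and 472. Upper-quartile scaling moved the median of all genes from -0.01 to 0.10 between 6CD1m and WT cells and from -0.06 to -0.22 for the interaction.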

Other observations

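Genes beside HDAC11 and HDAC8 were called with larger differences than HDAC11 and HDAC8 themselves. NUP210, which encodes a nuclear pore membrane protein and is the nearest tested gene before HDAC11, was at 10.4 ± 0.115 CPM in 6CD2m cells (SD, n = 3) and at group means of 0.146 to 1.05 CPM in the other groups. IQSEC1, which encodes an exchange factor for ARF GTPases and is the next gene, was at 25 ± 0.799 CPM in 6CD2m cells and at 2.58 to 5.82 CPM in the others. In 6CD2m relative to WT cells on Tubastatin A, NUP210 rose by 3.30 and IQSEC1 by 2.24 on the log2 scale (edgeR adjusted p = 2.4e-06 and 1.5e-06), and HDAC11 differed by 0.62 without being called. WNT7A, a secreted Wnt ligand on the other side of HDAC11, had 22 to 32 reads in the libraries of 6CD2m cells and 0 reads in all 12 others. It therefore passed the filter on low counts only through 6CD2m cells. The median of the 10 neighbours of HDAC11 in this comparison was 0.09.

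NHSL2, the fifth tested gene before HDAC8, was at 9.39 ± 0.382 CPM in 6CD2m cells and at 0.141 to 1.22 CPM in the other groups, and rose by 2.94 in 6CD2m relative to WT cells on Tubastatin A (edgeR adjusted p = 1.4e-06). The next gene, RGAG4, had 44 to 47 reads in the libraries of 6CD2m cells and at most 4 in any other. It too passed the filter on low counts only through 6CD2m cells. HDAC8 differed by 0.03 in the same comparison. These neighbours were looked at because of their position and are given as values only.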
